A study of Mus musculus with 4 samples.

Results

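The 8 genes described here are granule, surface and cytosolic markers of 3 kinds of granulocyte: Prg2, Epx and Ccr3 of eosinophils, Mcpt1, Mcpt2 and Cpa3 of mast cells, and S100a8 and S100a9 of neutrophils. They were chosen by symbol from the platform's probe-to-gene table, each is read by 1 probe set, and all 8 were found among the genes named on the array. They were proposed after Prg2 had been seen to be lower in the CD11b-positive fraction of these same arrays, so the differences between the fractions are given as a description, without a test. The question is whether the signal of Prg2 moves with that of the other granulocyte genes.

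Expression was measured on 4 Affymetrix arrays with RNA of IgA+ cells from the intestine of female Balb/c mice aged 9 weeks, titled WT and untreated. IgA is the antibody class made for the gut surface, and its producers there are mostly plasma cells. The cells were either CD11b+ or CD11b-, with 2 arrays of each; CD11b is the integrin alpha M chain. Each fraction has 1 array made from 1 µg of RNA (One-Cycle kit) and 1 from 0.1 µg (3' IVT Express kit), called replicates 1 and 2. The labels do not tell whether 2 arrays of 1 fraction hold different mice or sorts; the p-values therefore reflect the scatter of these samples alone, possibly technical.

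Eosinophils, mast cells and neutrophils all live in or enter the gut wall, and each stores ready-made proteins in granules. Eosinophil granules hold major basic protein, made from Prg2, and eosinophil peroxidase, made from Epx; Ccr3 is the receptor through which eotaxins draw the cells into tissue. Mucosal mast cells store the proteases Mcpt1 and Mcpt2, and carboxypeptidase A3 is a granule enzyme best known from connective tissue mast cells, while S100a8 and S100a9 together form calprotectin, an abundant cytosolic protein of neutrophils. Eosinophils and neutrophils carry CD11b on their surface. Prg2 and Epx are both switched on as eosinophils mature in the bone marrow.

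The arrays read plasma cell genes at the top of their range. Signals are quantile-normalized, in arbitrary units. Igha and Jchain, which encode the heavy chain and the joining chain of polymeric IgA, lay between 11010 and 12633 on every array. Sdc1, the surface proteoglycan CD138, was at 5626 and 5941 in the CD11b- against 3472 and 4155 in the CD11b+ arrays. Its log2 difference was -0.61 (SE 0.14). Itgam, the gene of CD11b, was at 189 and 109 in the CD11b+ arrays against 28.3 and 15.8 in the CD11b- arrays. Array profiles correlated at 0.933 to 0.958 across 12645 genes. Of the 13 plasma cell genes on the array, the lowest lay at the 95.2th percentile of probe sets by mean rank. The deposited arrays differ in level, with medians of 14.7 to 18.3.

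The members fell into 2 groups by signal. Prg2, Mcpt1, Mcpt2 and Cpa3 passed the filter on low signals, which lies at a signal of 9.51. Epx, Ccr3, S100a8 and S100a9 did not, so 4 of 8 members have a fitted difference. Just inside the filter was Cpa3, with array signals of 15.02 to 23.9, and just outside was Epx, with 2.84 to 14.7. In bulk RNA, fewer cells of a type and less RNA per cell cannot be told apart. The files hold no detection calls, so a weak signal is described by its rank among the probe sets of its array. Probe sets differ in affinity, so signals and ranks compare arrays for 1 gene and do not show which of 2 genes has more RNA.

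**Figure D1:**
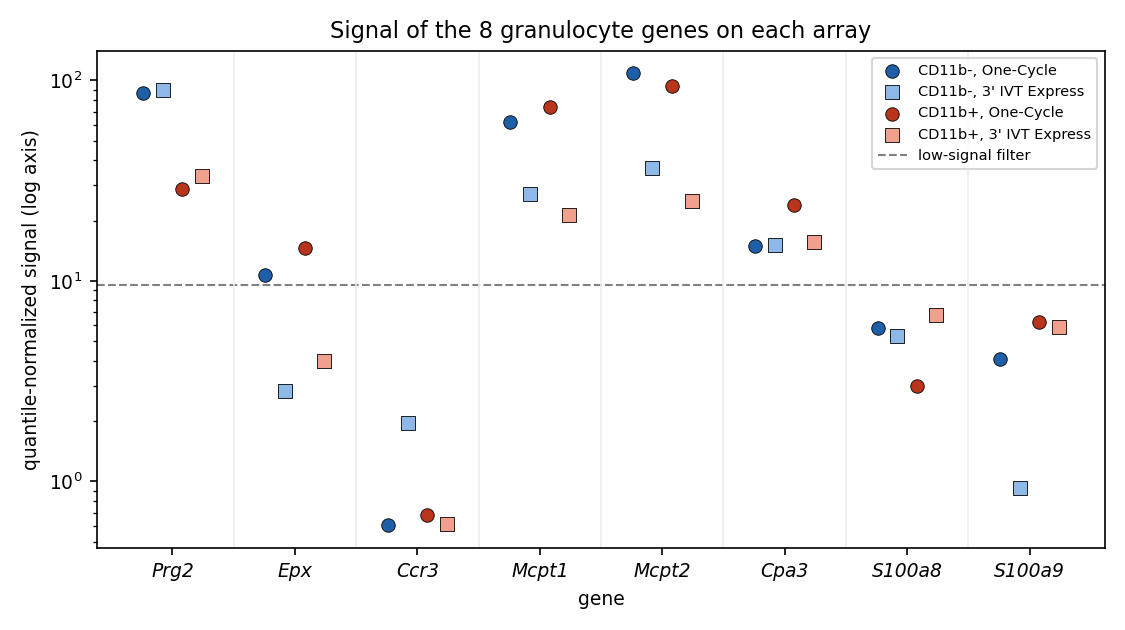
Quantile-normalized signal (log axis) of the 8 genes, with 1 point per array; colour gives the fraction, shape the labelling kit, and the dashed line the low-signal filter at 9.51. Both CD11b- points of Prg2 lie above both CD11b+ points, Mcpt1 and Mcpt2 separate by kit, and Ccr3, S100a8 and S100a9 stay below the line on every array.

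Prg2 encodes the proform of major basic protein, a toxic cationic protein of the eosinophil granule. Its signal was 86.2 (One-Cycle) and 89.96 (3' IVT Express) in the CD11b- arrays, and 28.7 and 33.2 in the CD11b+ arrays. Both CD11b+ arrays lay below both CD11b- arrays, and arrays of 1 fraction lay close together. The means were 31.0 ± 3.19 in the CD11b+ and 88.1 ± 2.64 in the CD11b- fraction (SD, n = 2 each). The log2 difference was -1.43 (SE 0.27), a 2.69-fold lower level on the log2(signal + 3) scale, which understates differences of weak genes. Within the kits the difference was -1.49 (One-Cycle) and -1.36 (3' IVT Express). By rank, Prg2 lay at the 78.6th and 79.2th percentile of probe sets in the CD11b- arrays and at the 61.2th and 63.8th in the CD11b+ arrays. The signals as deposited went the same way, at 62.7 and 88.3 in the CD11b- against 31.4 and 37.3 in the CD11b+ arrays. Of all 12645 genes tested, 0.656% had a difference as low or lower. Prg2 was chosen on this difference, so the share is a description and not a test.

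Epx encodes the peroxidase packed in the same granule as major basic protein. Its signal was 10.7 and 14.7 with the One-Cycle kit, in the CD11b- and the CD11b+ array, and 2.84 and 4.01 with the 3' IVT Express kit. The kits separated these 4 signals and the fractions did not, and the CD11b+ array was the higher of the pair with both kits. Epx lay at the 39.9th and 19.2th percentile in the CD11b- arrays. Ccr3, the eotaxin receptor, was at 0.605 and 1.95 in the CD11b- and at 0.677 and 0.612 in the CD11b+ arrays. That is no higher than the 14.6th percentile of probe sets on any array. Neither gene was lower in the CD11b+ array with both kits, as Prg2 was.

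Mcpt1 encodes a chymase of mucosal mast cells that is released into the gut lumen and blood. Its signal was 61.7 in the CD11b- and 73.5 in the CD11b+ array with the One-Cycle kit, and 27.1 and 21.4 with the 3' IVT Express kit. The fractions overlapped. The log2 difference was -0.03 (SE 0.62), made of 0.24 with the One-Cycle and -0.30 with the 3' IVT Express kit; it was 0.52 without CD11b- replicate 1 and 0.79 without CD11b+ replicate 2. Its fraction means were 47.4 ± 36.8 in the CD11b+ and 44.4 ± 24.5 in the CD11b- fraction (SD, n = 2 each).

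Mcpt2, a neighbouring gene on chromosome 14, encodes a second protease of mucosal mast cells. It stood at 108 in the CD11b- and 93.4 in the CD11b+ array with the One-Cycle kit, and at 36.7 and 25.03 with the 3' IVT Express kit. The fractions again overlapped, and the One-Cycle arrays were again the high ones. The log2 difference was -0.36 (SE 0.69), with -0.21 and -0.50 within the kits; it was 0.39 without CD11b- replicate 1 and 0.53 without CD11b+ replicate 2. As deposited, Mcpt2 was at 77.0 in the CD11b- and 99.1 in the CD11b+ array with the One-Cycle kit. With the 3' IVT Express kit the deposited signals were 35.8 and 27.3. The direction of Mcpt2 with the One-Cycle kit thus depended on the normalization. Members of this protease family are close in sequence, and how far a probe set of one reads the other was not tested.

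Cpa3 encodes the carboxypeptidase that mast cells store bound to heparin with their chymases. It was at 15.02 and 15.1 in the CD11b- arrays and 23.9 and 15.7 in the CD11b+ arrays. The CD11b+ arrays were above the CD11b- arrays, the second by less than 1 unit of signal. The log2 difference was 0.32 (SE 0.42), with 0.58 (One-Cycle) and 0.05 (3' IVT Express) within the kits.

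S100a8 was at 5.84 and 5.29 in the CD11b- and at 2.98 and 6.75 in the CD11b+ arrays. S100a9 was at 4.10 and 0.931 in the CD11b- and at 6.26 and 5.90 in the CD11b+ arrays. The highest rank of either was the 31.0th percentile, so both calprotectin genes stayed in the lower part of the range in both fractions. S100a9 had the higher signal in the CD11b+ array of each kit, and S100a8 went in opposite directions. No fold is given for these genes, since all 4 arrays were below the filter.

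Set side by side after quantile normalization, Prg2 was lower with both kits, as was Mcpt2 by a smaller amount. Cpa3 was higher with both, and Mcpt1 went in opposite directions. Over all genes tested 30.5% were lower and 31.6% higher with both kits. A fitted drop of at least 2-fold was found for Prg2 alone of the 4, and for 2.63% of all genes. Only Prg2 of the 4 had both CD11b+ arrays below both CD11b- arrays, which 17.3% of all genes had; Cpa3 had the reverse, as had 18.3%. With limma and Benjamini-Hochberg adjustment, 0 of 12645 genes (0%) passed an adjusted p of 0.05 in either direction, although 397 genes up and 445 down fell under 0.05 before adjustment. Without CD11b+ replicate 1 the calls were 2 higher and 22 lower, and without CD11b+ replicate 2 they were 1 and 1. With the kit as a replicate block, 4.14% of all genes were called lower and 3.73% higher. Since the members were chosen on this contrast, no call is given for them and nothing is read from their counts.

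**Figure D2:**
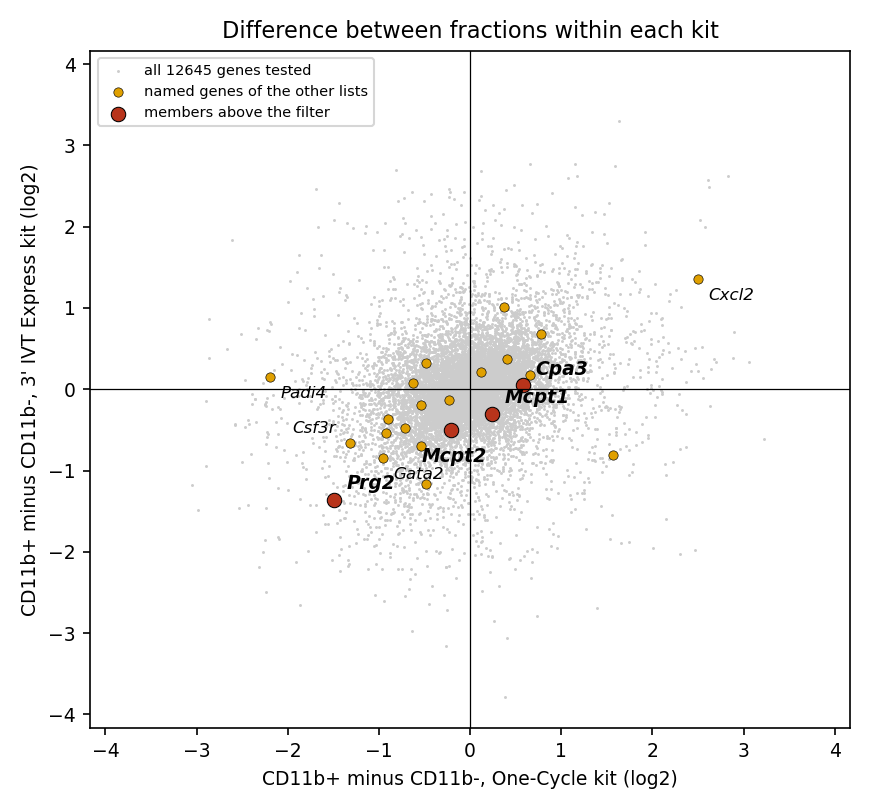
Difference between the CD11b+ and the CD11b- array (log2) with the One-Cycle kit (x axis) and with the 3' IVT Express kit (y axis), for the 12645 genes tested (grey), the 4 members above the filter (red) and the named genes of the other granulocyte lists (yellow). Prg2 lies at -1.49 and -1.36, away from Mcpt1, Mcpt2 and Cpa3, which lie near the centre.

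A profile over the 4 arrays, centred on its own mean, was compared with that of Prg2 by the root mean square difference on the log2 scale. Cpa3 was at 0.91, Mcpt2 at 1.04 and Mcpt1 at 1.04, which ranked them 9920th, 11393rd and 11418th of 12644 genes by closeness. The ranks reuse the difference on which Prg2 was chosen, and a kit difference of a gene adds to its distance. They are therefore a description and not a test. The nearest 8 genes lay between 0.036 and 0.11. They were Gm17508, Defa31, a Paneth cell defensin, Mgll, the lipase that breaks down monoacylglycerols, Cd93, a surface glycoprotein of long-lived plasma cells, Slc25a26, a mitochondrial carrier of S-adenosylmethionine, Kcnmb4os2, Pdcd1lg2, the PD-1 ligand PD-L2, and Oprm1, the mu opioid receptor. Mgll was at 62.03 and 67.4 in the CD11b- against 23.96 and 25.4 in the CD11b+ arrays. Pdcd1lg2 was at 75.9 and 86.0 against 25.8 and 35.8. Likeness over 4 arrays picks genes with a fraction difference of this size and little kit difference.

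The kits give a contrast on which the members were not chosen, and here it was tested (limma with fraction and kit, Benjamini-Hochberg over all genes). Mcpt1 was 2.60-fold higher with the One-Cycle kit (log2 difference -1.38, SE 0.31, for 3' IVT Express minus One-Cycle, adjusted p = 0.00240), with -1.11 in the CD11b- and -1.65 in the CD11b+ fraction. Mcpt2 was 3.11-fold higher with the One-Cycle kit (-1.63, SE 0.26, adjusted p = 6.30e-05), with -1.49 and -1.78. Without a trend in the prior variance neither passed (adjusted p = 0.268 for both). Prg2 (0.13, SE 0.27, adjusted p = 0.818) and Cpa3 (-0.26, SE 0.47, adjusted p = 0.780) did not pass. Of all genes, 6.72% were called higher with the One-Cycle and 7.96% with the 3' IVT Express kit. The kit, the amount of RNA and the preparation of cells cannot be told apart.

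**Figure D3:**
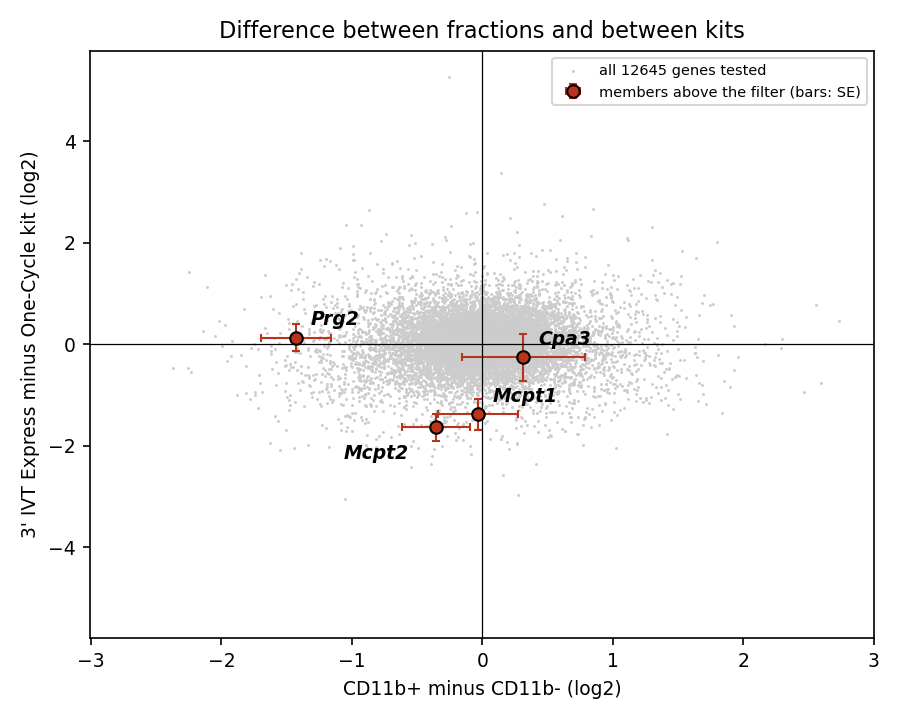
Difference between fractions (x axis, log2) and between labelling kits (y axis, log2) for the 12645 genes tested (grey) and the 4 members above the filter (red, bars are the SE of the fit with fraction and kit). Prg2 differs along the x axis, at -1.43, and Mcpt1 and Mcpt2 along the y axis, at -1.38 and -1.63.

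Transcripts of T, NK and innate lymphoid cells moved between the kits as well. Of 13 tested genes of that list, the One-Cycle kit gave 8 higher calls and the other kit 0, with a median of -1.11 for 3' IVT Express minus One-Cycle, against 0.02 over all genes. The summed signal of all 15 genes of that list on the array was 5722 and 2915 on the One-Cycle arrays. It was 2225 and 1522 on the others, CD11b- first. The part of such cells in the kit difference of Mcpt1 and Mcpt2 was not tested.

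Mast cells need the transcription factor Gata2, which binds GATA motifs. To show what lies before the mast cell genes, the promoter windows of Mcpt1 and Cpa3 are printed from RefSeq (GRCm38.p6), from 250 to 31 bases before the annotated start, with the letters GATAA in capitals. Mcpt1 lies at chr14:56017714-56017933 on the plus strand and Cpa3 at chr3:20242212-20242431 on the minus strand.
Mcpt1: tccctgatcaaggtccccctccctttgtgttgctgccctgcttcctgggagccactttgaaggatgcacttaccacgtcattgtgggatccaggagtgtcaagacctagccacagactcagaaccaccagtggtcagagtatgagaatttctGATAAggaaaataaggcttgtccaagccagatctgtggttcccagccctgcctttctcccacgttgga
Cpa3: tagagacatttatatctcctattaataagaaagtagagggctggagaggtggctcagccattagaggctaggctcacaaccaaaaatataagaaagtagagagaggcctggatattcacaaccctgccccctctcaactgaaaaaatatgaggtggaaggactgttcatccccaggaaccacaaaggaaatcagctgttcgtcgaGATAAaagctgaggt
GATAA was searched on both strands, and each of these windows held it 1 time. Windows were found for 6 members, all but Prg2 and Mcpt2, and those of Epx, Ccr3, S100a8 and S100a9 did not hold these letters. Of 32851 windows of this length, 20.6% held them. A match describes the letters only.

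Other genes of the same cell types, listed by cell type, were mostly below the filter. Of 75 genes of eosinophils, mast cells, basophils and neutrophils besides the members, 56 were on the array and 23 passed the filter, with a median log2 difference of -0.27, against 0.0027 over all genes. Of these 23, 11 were lower and 5 higher with both kits, where 30.5% and 31.6% of all genes were. By limma 0 were called in either direction, with 1 lower and 0 higher at an unadjusted p under 0.05. Over all 12645 genes 445 were lower and 397 higher at that unadjusted threshold. With the kit as a block 0 were called as well (2 lower and 0 higher at an unadjusted p under 0.05), where 7.88% of all genes were. The lists were written with earlier results of these arrays known.

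Of 7 other eosinophil genes on the array, 2 passed the filter. These were Csf2rb, the chain shared by the receptors for IL-5, IL-3 and GM-CSF (-0.18, SE 0.29, adjusted p = 0.954), and Gata1, a transcription factor required for eosinophil development (-0.27, SE 0.46, adjusted p = 0.956, limma). A second probe set of Csf2rb was at 0.20. Below the filter were Prg3, the homologue of Prg2 in the same granule, at 0.981 to 3.26 on the 4 arrays, and Siglecf, the surface lectin of mouse eosinophils, at 0.354 to 4.51. Il5ra, the specific chain of the IL-5 receptor, was at 18.04 and 1.05 in the CD11b- and 12.7 and 5.88 in the CD11b+ arrays. Prg3 and Siglecf were below a signal of 9.51 on every array, as was Ccr3. Siglecf was at 0.813 and 0.354 in the CD11b- and 3.32 and 4.51 in the CD11b+ arrays. Csf2rb2, also below the filter, was at 3.30 and 1.64 in the CD11b- and 11.8 and 24.07 in the CD11b+ arrays. Siglecf and Csf2rb2 were thus higher with both kits and Prg3 lower with both. Il5ra and Alox15 went in opposite directions.

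Of 17 other mast cell genes on the array, 10 passed the filter, with a median of -0.29 (-0.11 without CD11b- replicate 1). Of these 10, 6 were lower and 1 higher with both kits, where 30.5% and 31.6% of all genes were. Gata2 was at 56.2 and 31.3 in the CD11b- and 27.6 and 16.1 in the CD11b+ arrays (-0.90, SE 0.43, adjusted p = 0.793, limma). Its fractions did not overlap, and it was lower by a like amount with both kits (-0.95 and -0.84). Hpgds, the haematopoietic prostaglandin D synthase, was at -0.60 (SE 0.36, adjusted p = 0.864, limma) and Tph1, the first enzyme of serotonin synthesis, at -0.73 (SE 0.52, adjusted p = 0.883, limma). Rab27b, which serves granule secretion, was at 0.42 (SE 0.40, adjusted p = 0.922, limma), and another of its probe sets above the filter at -0.40. Kit, the receptor for stem cell factor, was at 20.1 and 40.1 in the CD11b- and at 18.2 and 27.9 in the CD11b+ arrays. The connective tissue chymase Mcpt4 stayed at 1.28 to 2.24, and the IgE receptor chain Ms4a2 at 0.622 to 5.99. Fcer1a, also below the filter, was at 13.4 and 19.6 in the CD11b- and 1.56 and 9.91 in the CD11b+ arrays. Fcer1a was thus lower with both kits, and Mcpt4 and Ms4a2 higher with both. The other mast cell genes below the filter went in opposite directions.

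The only basophil gene above the filter was Il3ra, a chain of the IL-3 receptor (0.69, SE 0.42, adjusted p = 0.872, limma). The basophil protease Mcpt8 was at 0.991 to 6.36. Also below the filter, Cd200r3 was at 0.425 and 0.606 in the CD11b- and 5.68 and 2.58 in the CD11b+ arrays. Il13 was at 2.96 and 2.28 against 17.2 and 5.25. Cd200r3 and Il13 were thus higher with both kits, and Mcpt8 and Il4 went in opposite directions.

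Of 27 other neutrophil genes on the array, 10 passed the filter, with a median of -0.39, made of -0.70 with the One-Cycle and 0.13 with the 3' IVT Express kit (-0.051 without CD11b+ replicate 2). Of these 10, 4 were lower and 3 higher with both kits, where 30.5% and 31.6% of all genes were. The higher ones were Il1r2 (0.46, SE 0.43), Mmp9 (0.68, SE 0.72) and Clec4d (0.31, SE 0.47). Csf3r, the receptor for G-CSF, was at 42.9 and 29.5 in the CD11b- and 15.5 and 17.6 in the CD11b+ arrays, with no overlap (-0.99, SE 0.37, adjusted p = 0.712, limma). Ngp, a granule protein, was at -0.63 (SE 0.36, adjusted p = 0.848, limma) and Mpo, the peroxidase of azurophil granules, at -0.37 (SE 0.28, adjusted p = 0.897, limma). Padi4, the enzyme that citrullinates histones, was at -1.02 (SE 0.70, adjusted p = 0.880, limma), with -2.19 and 0.15 within the kits. Camp (0.948 to 4.46), Chil3 (0.313 to 0.866) and Cxcr2 (2.97 to 8.95), a granule peptide, a secreted lectin and the chemokine receptor of neutrophils, were below the filter. Of the 27 genes, 17 were below the filter, as were S100a8 and S100a9. Among those 17, Camp, Fpr2, Lrg1 and G0s2 were higher with both kits, and Prtn3, Lcn2, Cd177, Clec4e and Ifitm6 lower. The others of the 17 went in opposite directions.

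Signals that recruit or sustain these cells were read too. Of 15 such genes 5 passed the filter. Cxcl2, a neutrophil chemokine, was at 74.2 and 77.5 in the CD11b- and 432 and 203 in the CD11b+ arrays (1.93, SE 0.37, adjusted p = 0.467, limma; adjusted p = 2.04e-07 with the block). Cxcl3, a related chemokine, was at 0.72 (SE 0.45, adjusted p = 0.877, limma). Il17a was at -0.62 (SE 0.30, adjusted p = 0.798, limma) and Kitl, the mast cell growth factor, at -0.82 (SE 0.40, adjusted p = 0.805, limma), where 2 other probe sets of Kitl above the filter were at 0.26 and 1.23. The eotaxins Ccl11 (0.680 to 9.77) and Ccl24 (2.18 to 6.40) and the eosinophil growth factor Il5 (3.28 to 12.8) were below the filter. Il5 was at 7.26 and 12.8 in the CD11b- and 3.28 and 5.81 in the CD11b+ arrays. Csf2, also below the filter, was at 16.5 and 21.3 against 3.49 and 2.73. Il5 and Csf2 were thus lower with both kits, and Il3 and Cxcl5 higher with both. The other genes of this list below the filter went in opposite directions.

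Of 11 other S100 genes on the array 7 passed the filter; by limma 0 were called, 0 at an unadjusted p under 0.05. S100a6 was at 0.39 (SE 0.36, adjusted p = 0.922, limma), S100a13 at 0.17 (SE 0.19, adjusted p = 0.946, limma) and S100a1 at -0.08 (SE 0.36, adjusted p = 0.988, limma). S100a16 was at 0.38 (SE 0.92, adjusted p = 0.971, limma), made of 1.57 and -0.81 within the kits. S100a10, which partners annexin A2, was at 725 to 1458.

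Markers of other cells are set beside Prg2. Over all genes tested, 30.5% were lower and 31.6% higher with both kits. Of 22 epithelial genes, all above the filter, 19 were lower and 0 higher in the CD11b+ fraction with both kits, with a median of -1.18 (-0.76 with the One-Cycle and -1.45 with the 3' IVT Express kit). Their summed signal was 8685 to 8747 in the CD11b- and 3509 to 5024 in the CD11b+ arrays. Of 13 tested T, NK and innate lymphoid genes 8 were lower and 1 higher with both kits, with a median of -0.59 (-1.05 and -0.31). Of 14 tested macrophage, monocyte and dendritic cell genes 3 were lower and 6 higher with both kits, with a median of 0.31 (0.69 and 0.098). The lower ones were Adgre1 (-0.11), Csf1r (-0.11) and Mertk (-0.56), and the higher ones Itgax, Il1b, C1qb, Cd14, Cd68 and Lyz2. The summed signal of all 19 genes of this list on the array was 539 to 630 in the CD11b- against 719 to 985 in the CD11b+ arrays. That sum includes C1qa, below the filter, at 49.6 in CD11b+ replicate 1 and 1.25 to 2.71 on the other arrays. By limma without the block 0 genes of these 3 lists were called. At an unadjusted p under 0.05, 16 epithelial genes and 1 T, NK or innate lymphoid gene were lower. Of the macrophage, monocyte and dendritic cell genes 4 were higher at that threshold. Over all 12645 genes 445 were lower and 397 higher at an unadjusted p under 0.05. With the block 16 epithelial and 5 T, NK and innate lymphoid genes were called lower, and 2 macrophage, monocyte and dendritic cell genes higher. Of all genes, 4.14% were called lower and 3.73% higher with the block. No defining marker of these 3 lists is listed at 0 on any array, which does not show that it was detected. Below the filter were 5 macrophage, monocyte and dendritic cell genes and 2 T, NK and innate lymphoid genes. Among them were Cd163 at 0.294 to 9.58 and Cd8b1 at 0.540 to 8.65. Of 13 plasma cell genes 10 were lower and 1 higher with both kits (median -0.15), and of 9 tested stromal genes 3 were lower and 2 higher (median -0.20). With the block 3 plasma cell genes were called lower and 0 higher. The 2 tested red cell and platelet genes had a median of -0.11. The part of these other cells in the difference of Prg2 was not tested.

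**Figure D4:**
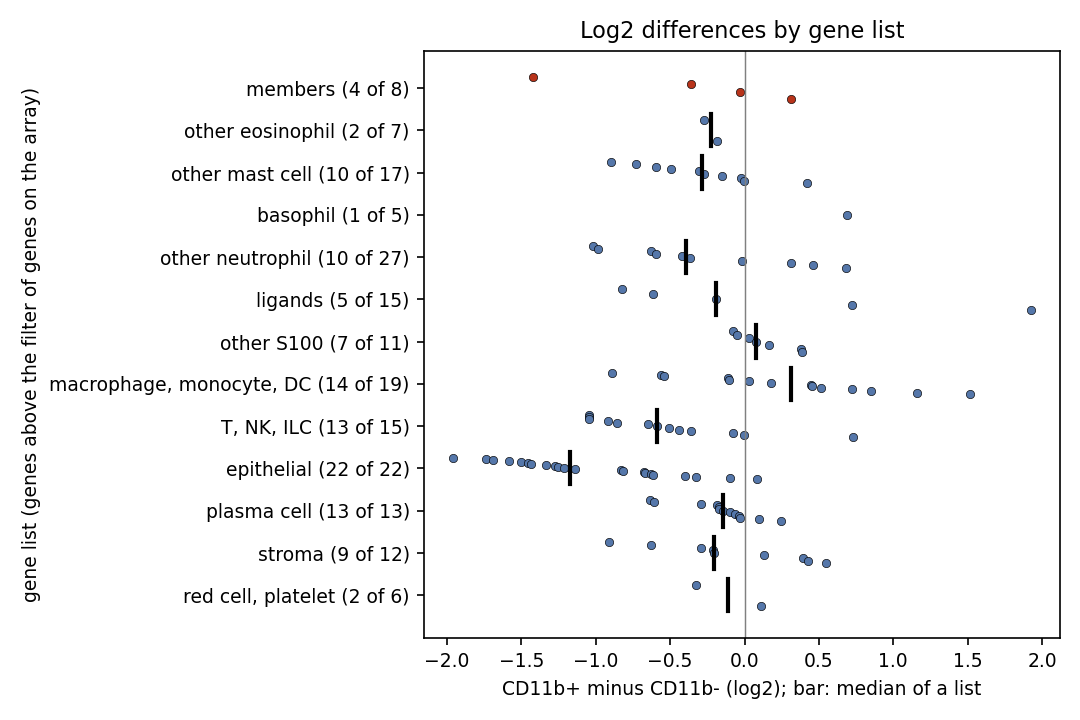
Log2 difference between the CD11b+ and CD11b- fractions for each gene above the filter, by list, with the number of such genes and of genes on the array; bars are list medians, drawn for lists with over 1 gene and not for the members. Prg2 is the leftmost red point, at -1.43; the other mast cell and neutrophil genes have medians of -0.29 and -0.39, and the epithelial genes -1.18.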

How the data were processed

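Per the labels, RNA of 4 samples was hybridised to 1 array each. The deposited values are intensity values on a linear scale, 1 signal per probe set, and the submitters' processing notes name Affymetrix Expression Console and MAS5; versions, scaling and detection calls were not given in the sources used here. The table has 45101 probe sets, of which 64 controls were left out, 34945 name 1 gene in the platform table, 932 several and 9160 none. Array levels differed, so signals were quantile-normalized; log2(signal + 3) was used, low probe sets were dropped at the 40th percentile of mean log2 signal (9.51 units), and the brightest per gene was fitted. Tests over the 12645 genes used lmFit and eBayes with trend (limma 3.58.1, R 4.3.3), 2-sided, with Benjamini-Hochberg adjustment. With 2 arrays per fraction the smallest exact permutation p is 0.333, and no such test was run. Precision is limited by having 4 arrays.

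The kit, named in the labels' protocols, pairs the arrays: deviations from the fraction means correlated across genes between arrays of the same kit (r = 0.387). Replicate numbers follow the order of deposit. The block fit has 1 residual degree of freedom and a prior of 25.6. The model was tested on simulated data.

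The members and the 12 gene lists (169 of 202 entries on the array) were chosen with earlier results of these data known. Named genes are the members, Itgam, Igha, Jchain and Sdc1, up to 4 tested genes per other granulocyte list by smallest p, and the 8 tested genes nearest to Prg2 in profile; other genes named were chosen after their values were seen. Alternatives were other pseudocounts, scalings, filters and probe set rules, the block, each kit alone, no trend and leaving out each array; those for the kit contrast were added after seeing the data. Values under 4 other scalings are relative to the median of all genes.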

Additional observations from a re-analysis of the deposited data

Results flagged for a closer look

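Mcpt1 had opposite directions with the 2 labelling kits: the CD11b+ minus CD11b- difference was 0.24 log2 with the One-Cycle and -0.30 with the 3' IVT Express kit. With 1 array of each fraction per kit, the difference between the kits was not tested.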

How the results depend on the processing

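Prg2 stayed lower under every alternative run: -1.22 with a pseudocount of 12, -1.52 to -1.33 on leaving out 1 array, and within the spread between replicates otherwise. Mcpt1 was reversed with the One-Cycle kit alone (0.24) and ran from -0.86 to 0.79 on leaving out 1 array, positive without CD11b- replicate 1 (0.52) or CD11b+ replicate 2 (0.79). Mcpt2 ran from -1.25 to 0.53, positive without the same arrays (0.39 and 0.53). With 3 arrays the kits are no longer balanced over the fractions. Cpa3 was at 0.58 and 0.051 with the kits alone, and 0.053 to 0.58 on leaving out 1 array. With the kit as a replicate block 472 genes were called higher and 524 lower, against 0 and 0; on leaving out 1 array 0 to 2 higher and 0 to 22 lower, with 22 lower and 2 higher without CD11b+ replicate 1 and 1 of each without CD11b+ replicate 2. The other eosinophil median was 0.26 without the low-signal filter (-0.38 to -0.080 without 1 array). The mast cell median was -0.24 with a pseudocount of 12, -0.49 as deposited, -0.47 after median centring, -0.45 with a common trimmed mean, -0.60 for averaged probe sets, -0.34 without cross-hybridising ones, -0.36 with the 3' IVT Express kit, and -0.40 to -0.11 without 1 array. The neutrophil median turned to 0.13 with the 3' IVT Express kit (-0.46 to -0.051 without 1 array). The median of recruiting factors turned to 0.87 with a filter at the 70th percentile, 0.43 for averaged probe sets, 0.72 without cross-hybridising ones and 0.15 with the One-Cycle kit; without 1 array it ran from -0.71 to 0.092, positive without CD11b- replicate 1. The S100 median was 0.16 after median centring, 0.20 with a common trimmed mean, 0.17 without the filter, 0.21 with the 3' IVT Express kit and 0.016 to 0.43 without 1 array. The kit differences of Mcpt1 (-1.38) and Mcpt2 (-1.63) lost their calls without trend (adjusted p = 0.268). The cause was not tested. As deposited, the median of all genes was 0.42 higher in the CD11b+ arrays, and after median centring 0.21. Signals below the filter and the 2 arrays per fraction limit what can be seen.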
